A study of Homo sapiens with 28 samples.

Results

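The genes described here are 9 long noncoding RNAs and small RNA hosts: MIR17HG, DLEU2, SNHG1, SNHG3, GAS5, H19, MEG3, MALAT1 and NEAT1. Their members were all probe sets that the platform annotation assigns to them by symbol or older alias, which gave 52 of the 54675 probe sets on the array, where 19775 genes have a probe set to themselves. A gene's probe sets are lettered here in the order of their array identifiers, which the plots give. The 9 genes were measured on 28 single-colour Affymetrix arrays in 2 derivatives of SK-N-AS, an established neuroblastoma line that lacks MYCN amplification. In the MYCN line, doxycycline turns on a MYCN transgene, and 3 arrays were made at each of 7 times with the labels 0, 4, 8, 24, 48, 96 and 192. The mock line, which the labels name SKNAS-pcDNA6TR, received doxycycline as well and has 1 array at each of those times. Both lines were grown in the same medium with fetal calf serum, and time 0 is the common start of each course. The unit of time is not stated in the labels. Nor do they state whether a derivative is 1 clone or whether arrays of a time came from separate cultures, so p-values measure the spread between these arrays, which may be technical.

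A host gene is transcribed as a long RNA from which small RNAs are cut. MIR17HG carries the miR-17-92 cluster, is a known MYC and MYCN target, and is best known in neuroblastoma for its microRNAs, which restrain differentiation and cell death genes. DLEU2 carries miR-15a and miR-16-1 in the region of chromosome 13 lost in chronic lymphocytic leukaemia. SNHG1, SNHG3 and GAS5 carry snoRNAs inside their introns, and their spliced exons are mostly removed by nonsense-mediated decay. Most snoRNAs, though not all, are guides for the chemical modification of ribosomal RNA. H19 and MEG3 are imprinted, expressed from the maternal allele, and lie beside IGF2 and DLK1. MALAT1 is an abundant RNA of nuclear speckles, and NEAT1 is the scaffold of paraspeckles. An array of this kind reads the long host RNA or its exons, not the mature small RNAs.

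The mature microRNAs cut from 4 of the hosts are shown because they are the products that the host RNA stands for. Their sequences come from RefSeq on build GRCh38.p14, and the seed, bases 2 to 8, is in capitals. The 6 hairpins of MIR17HG lie within 787 bases on the plus strand, chr13:91350605-91351391. Its first sequences below share the seed AAAGUGC between miR-17 and miR-20a, and the miR-19 sequences share GUGCAAA.
hsa-miR-17-5p: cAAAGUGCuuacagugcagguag
hsa-miR-20a-5p: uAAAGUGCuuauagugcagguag
hsa-miR-18a-5p: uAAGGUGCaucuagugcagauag
hsa-miR-19a-3p: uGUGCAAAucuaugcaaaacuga
hsa-miR-19b-3p: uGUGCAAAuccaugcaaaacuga
hsa-miR-92a-3p: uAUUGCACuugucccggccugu
The pair in DLEU2 shares the seed AGCAGCA, and its 2 hairpins lie within 229 bases on the minus strand, chr13:50048973-50049201.
hsa-miR-15a-5p: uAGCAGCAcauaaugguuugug
hsa-miR-16-5p: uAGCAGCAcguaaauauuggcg
H19 holds 1 hairpin with products from both arms, and miR-770 lies in the MEG3 transcript. None of these 3 seeds is shared with another sequence shown here.
hsa-miR-675-5p: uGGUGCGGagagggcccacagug
hsa-miR-675-3p: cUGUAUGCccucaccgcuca
hsa-miR-770-5p: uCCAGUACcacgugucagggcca

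Induction itself was clear. In the MYCN line, MYCN averaged 84.0 ± 17.5 at time 0 and 2168 ± 820 by time 4, was 4571 ± 259 by time 48 and ended at 3193 ± 112 (time 192; intensity, SD, n = 3 each), and it read 1.6 to 3.0 on the 7 mock arrays. The values are deposited intensities on a linear scale, and changes are differences of their log2 with a standard error (SE). Each time was compared with time 0 in limma, and a probe set was called where its p, adjusted by Benjamini-Hochberg over all 32768 probe sets bright enough to test, was under 0.05. Spiked hybridisation controls split the arrays: bioD read 1544 to 1941 on the 14 arrays of MYCN line replicates 1 and 2, and 2322 to 2770 on the 14 arrays of its replicate 3 and of the mock line. The lines also differed in cell identity genes. The summed signal of 7 noradrenergic neuroblastoma markers was 488.2 to 742.1 in the MYCN line and 2458.3 to 2896.7 in the mock line. PHOX2A, GATA3, GATA2 and ISL1 were higher on every mock array, while DBH and TH, the enzymes that define noradrenergic cells, read at most 7.7 in the MYCN line and 8.7 on mock arrays. The summed signal of 8 mesenchymal neuroblastoma markers was 7266.3 to 11234.1 in the MYCN line and 6845.3 to 7821.5 in the mock line. VIM alone read 4772.2 to 6908.2 and 4558.5 to 5330.5. These markers disagreed by median: FOSL1 (315.2 against 135.7) and FN1 (1260.2 against 249.9) were higher in the MYCN line. PRRX1 (742.1 against 945.1) and SNAI2 (209.5 against 344.1) were higher in the mock line. YAP1 and NOTCH2 were alike, and MEOX2 read at most 7.4. Of 2 leukocyte markers, PTPRC read 1.0 to 36.2 in the MYCN line and 197.6 to 262.2 in the mock line. Within the MYCN line, GATA3, GATA2 and FOSL1 rose by time 192, and FN1 and PTPRC fell by 2.99 each (limma, adjusted p = 5.3e-07 and 0.0041). The part of these differences in the results was not tested, and in bulk RNA fewer cells of a type and less RNA per cell cannot be told apart.

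Of the 52 probe sets, 40 passed the filter on dim probe sets and 12 did not. The 12 were 1 of 2 for MIR17HG, 5 of 10 for DLEU2, 5 of 10 for MEG3 and 1 of 9 for NEAT1. A total of 21 probe sets carry several gene names, mostly a host with its embedded small RNA genes, and their signal was read here as the host RNA. The target accession given for the dim NEAT1 probe set B belongs to SPRY4 in RefSeq, so it was not read as NEAT1. Few members were called. Against time 0, 0 of the 40 were called at times 4, 8, 24 and 96, where 0.0061%, 0.256%, 3.23% and 12.8% of all probe sets were called. At an unadjusted p under 0.05 the 4 times had 1, 3, 4 and 3 members (limma). For unadjusted counts, here and below, the share over all probe sets is not given, so they have no background beside them. At time 48 the single call was a GAS5 probe set (1 of 40, against 7.09% of all), and at time 192 a DLEU2 probe set (1 of 40, against 14.9% of all). The median change of the 40 members lay between -0.15 and 0.02 over the 6 times, beside -0.02 to 0.00 for all tested probe sets. An F-test over all times called 2 of 40, 1 each of MIR17HG and DLEU2, against 14.3% of all. The shares called by adjusted p are at or under the background of the array.

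MIR17HG was read by probe set A, whose annotation also lists the 6 microRNA genes of the cluster. In the MYCN line its intensities were 98.0, 56.7 and 82.6 before doxycycline (time 0, replicates 1, 2 and 3), 93.7, 82.8 and 53.3 for time 4, 48.0, 48.0 and 39.9 for time 8, and 72.5, 60.6 and 62.4 for time 24. Later arrays gave 55.6, 89.0 and 81.8 (time 48), 88.0, 66.8 and 103.2 (time 96), and 91.5, 90.7 and 103.5 (time 192). The course dipped at time 8, where all 3 arrays lay below all 3 of time 0, as did 6.79% of all tested probe sets at that time, and the latest arrays overlapped those of time 0. The F-test called MIR17HG over the whole course (limma, adjusted p = 0.041). No single time passed: the change was -0.77 (SE 0.23, adjusted p = 0.23) at time 8 and 0.30 (SE 0.23, adjusted p = 0.46) at time 192. The F-test call was lost when arrays were set to equal medians (adjusted p = 0.085), without a filter on dim probe sets (0.061), without any 1 of the 3 replicate numbers (0.18 to 0.22), and without any 1 of 12 single arrays, among them each array of times 8, 24 and 192 (0.051 to 0.16).

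On the mock arrays MIR17HG read 41.5, 35.4, 29.3, 35, 38.2, 32.1 and 27.9 from time 0 to time 192. The mock value at time 8 was also below that at time 0, by a log2 change of -0.50, and the lowest mock array was that of time 192. The 2 lines overlapped only through the lowest MYCN line array, replicate 3 at time 8. Before doxycycline the lines already stood apart, with 56.7 to 98.0 in the MYCN line, against 41.5 in the mock line, at time 0. The lines differed in MYCN as well. It averaged 84.0 ± 17.5 (SD, n = 3) in the MYCN line at time 0 and read 1.6 to 3.0 on the mock arrays. At time 4, where MYCN averaged 2168 ± 820 (SD, n = 3), the change of MIR17HG from time 0 was -0.05 with an adjusted p of 0.998 (limma). The part of MYCN in the MIR17HG values was not tested. The second MIR17HG probe set, B, read 0.2 to 4.8 in the MYCN line and 0.2 to 8.3 in the mock line, and was not tested.

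DLEU2 fell late in the MYCN line on 1 of its 5 tested probe sets. Probe set C read 147.2, 125.2 and 134.3 on the time 0 arrays, then 146.3, 145.2 and 138.5 (time 4), 147.3, 137.5 and 141.9 (time 8), and 141.2, 116.2 and 114.3 (time 24). It went on to 116.9, 97.7 and 109.7 (time 48), 132.1, 109.4 and 123.7 (time 96), and 87.9, 109.5 and 113.7 (time 192). All 3 arrays of time 192 lay below all 3 of time 0, as they did for 15% of all tested probe sets. The change at time 192 was -0.39 (SE 0.13, limma, adjusted p = 0.043), and the F-test over the course gave an adjusted p of 0.044. The time 192 call was lost with equal array medians (adjusted p = 0.24), with quantile normalization (0.080), without a filter on dim probe sets (0.064), in a fit of times 0 and 192 alone (0.20), without replicate 1, 2 or 3 (0.079 to 0.49), and without any 1 of 10 of the 21 single arrays (0.051 to 0.22). Without replicate 1 the change itself shrank to -0.22. The F-test call was lost with equal array medians (0.509), quantile normalization (0.078) and no filter (0.064), without any replicate number (0.13 to 0.46) and without any 1 of 14 single arrays (0.052 to 0.094). On the mock arrays it read 81.7, 75.3, 94.0, 54.7, 57.6, 59.4 and 56.8, a change of -0.52 at time 192, so it was also lower late there. The difference in trend between the lines was 0.03 per time step (adjusted p = 0.68).

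The other tested DLEU2 probe sets were not called. Probe set A, which ran most closely with probe set C and is also annotated to MIR15A and DLEU2L, read 102.0 to 192.4 in the MYCN line and 47.3 to 88.7 in the mock line, with no overlap over the 28 arrays. Its change at time 192 was -0.22 (adjusted p = 0.40) in the MYCN line and -0.91 on the mock arrays. Correlations between pairs of the 5 tested DLEU2 probe sets ran from 0.07 to 0.89 over the 21 MYCN line arrays (median 0.32), the highest between probe sets A and C, and these arrays share scaling and time course. The 3 remaining tested sets read 4.0 to 80.4 in the MYCN line and 3.1 to 63.4 in the mock line. Neighbours of DLEU2 on chromosome 13 took their own courses.

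DLEU1, a long noncoding RNA beside DLEU2, rose by 0.90 on the log2 scale at time 192 (SE 0.12, limma, adjusted p = 3.7e-05), averaging 300.8 ± 16.9 then and 161.5 ± 16.3 at time 0 (SD, n = 3 each), and read 102.2 and 140.9 at those times in the mock line. It was also called at times 8, 24, 48 and 96. Of 9 fits that left out a replicate number or an array of the times compared, 8 lost the time 8 call (adjusted p up to 0.93), 2 that of time 24 and 1 that of time 48. The calls at times 96 and 192 held in all 9. TRIM13, a ubiquitin ligase gene next to DLEU2, was called by the F-test only (adjusted p = 0.043), with 109.8 ± 8.2 at time 8 and 161.5 ± 34.0 at time 0 (SD, n = 3 each), a change of -0.54 with an adjusted p of 0.19.

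Promoters are shown for the 3 members called in the MYCN line, with the E-box CACGTG, the letters bound by MYC family proteins, searched in them. The windows are RefSeq sequences of 300 bases, 250 before and 50 after a gene start, on build GRCh38.p14, given on the gene's strand, with the match in capitals. CACGTG reads the same on both strands and occurred in 1 of 12 windows of the 8 members that have one, and in 7.26% of all 35116 windows. The match lies 230 bases before a DLEU2 start. The windows are chr13:91347437-91347736 on the plus strand for MIR17HG, and chr13:50125492-50125791 for DLEU2 and chr1:173868996-173869295 for GAS5 on the minus strand.
MIR17HG promoter: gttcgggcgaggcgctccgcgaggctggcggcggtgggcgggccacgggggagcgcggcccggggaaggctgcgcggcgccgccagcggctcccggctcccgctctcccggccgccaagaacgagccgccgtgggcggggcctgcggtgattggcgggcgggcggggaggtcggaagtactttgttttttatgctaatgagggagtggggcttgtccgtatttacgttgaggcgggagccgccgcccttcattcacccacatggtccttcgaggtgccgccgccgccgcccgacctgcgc
DLEU2 promoter: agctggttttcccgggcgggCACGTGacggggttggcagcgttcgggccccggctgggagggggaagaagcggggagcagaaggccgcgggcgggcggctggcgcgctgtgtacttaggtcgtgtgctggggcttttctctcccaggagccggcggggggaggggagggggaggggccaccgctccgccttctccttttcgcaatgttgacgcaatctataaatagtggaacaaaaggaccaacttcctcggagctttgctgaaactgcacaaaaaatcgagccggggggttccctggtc
GAS5 promoter: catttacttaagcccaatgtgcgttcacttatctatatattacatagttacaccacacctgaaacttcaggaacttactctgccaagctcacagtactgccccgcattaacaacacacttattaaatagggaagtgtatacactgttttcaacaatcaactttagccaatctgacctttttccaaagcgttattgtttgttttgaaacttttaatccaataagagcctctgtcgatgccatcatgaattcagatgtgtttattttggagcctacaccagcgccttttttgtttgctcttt
A second DLEU2 window, the GAS5 window and the MIR17HG window hold no CACGTG, which says only that these letters are not in these bases. NEAT1 is named only.

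**Figure D1:**
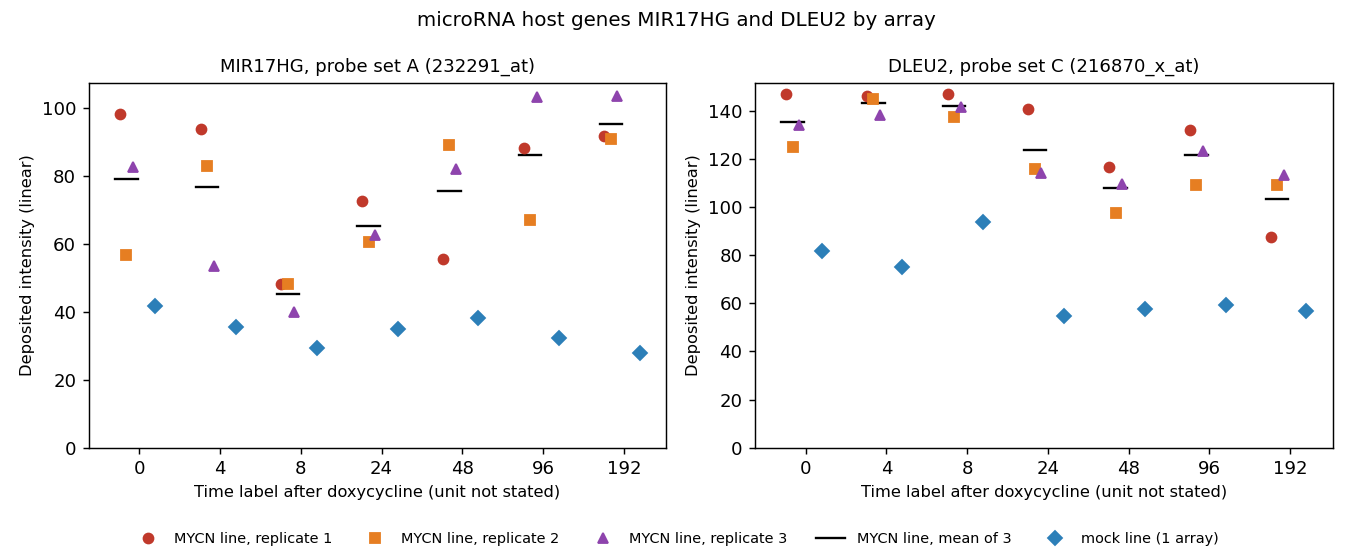
Deposited intensity (linear axis) of MIR17HG and DLEU2 against the time label, with a point for each array, bars at the mean of the 3 MYCN line arrays and the mock array beside them. MIR17HG dips to 39.9 to 48.0 at time 8 in the MYCN line, and DLEU2 reads 87.9 to 113.7 at time 192, against 125.2 to 147.2 at time 0.

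Among the snoRNA hosts, SNHG1 was higher in the MYCN line than in the mock line at every time, time 0 included. Probe set A, annotated with its snoRNAs, read 1750.7, 1310.1 and 1806.7 (time 0), 1264.1, 1328.9 and 1205.0 (time 24), 1160.0, 1335.2 and 1320.2 (time 48), and 1729.3, 1448.9 and 1489.1 (time 192) in the MYCN line. The mock arrays read 955.4, 966.5, 779.6, 827.1, 842.2, 962.8 and 1126.6 in time order, all below the lowest MYCN line array. Of all tested probe sets 5.42% were higher in the MYCN line on every array, and among members SNHG1 and 1 DLEU2 probe set were. Within replicate 3, on the same side of the hybridisation split as the mock arrays, SNHG1 read 1205.0 to 1806.7. The change was -0.34 at both time 24 (SE 0.11, limma, adjusted p = 0.10) and time 48 (adjusted p = 0.069), and -0.05 at time 192 (adjusted p = 0.84). With the split as a block the time 48 adjusted p was 0.039, with quantile normalization 0.035, and blocking on the replicate number gave 0.031. Without replicate 2 at time 0 it was 0.0085, the only 1 of 21 single arrays whose removal gave a call. Of 9 fits that left out a replicate number or an array of the times compared, 8 stayed uncalled. Over these 9 the change ran from -0.52 to -0.21, with an adjusted p up to 0.63.

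SNHG3, host of the U17 snoRNAs, was not called at any time. Probe set A averaged 82.2 ± 3.1 at time 192, against 95.9 ± 5.9 at time 0 (SD, n = 3 each). All 3 late arrays were lower, as for 15% of all tested probe sets, and the change was -0.22 (SE 0.15, limma, adjusted p = 0.39). Mock arrays read 57.9 to 78.0, and 66.4 to 108.5 was the range in the MYCN line, so the lines overlapped.

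GAS5, whose RNA is known to build up when growth stops, rose along the mock course on 2 of its 5 probe sets. It was not called for a rise in the MYCN line. Probe set A read 1694.4, 1854.4, 1766.5, 1985.3, 1996.6, 2370.9 and 3012.5 on the mock arrays in time order, and the highest was the last. MYCN line arrays read 1919.5, 1742.6 and 1935.8 (time 0), 1771.5, 1717.1 and 1552.2 (time 48), 1839.7, 1789.2 and 1781.5 (time 96), and 2333.8, 1617.2 and 1497.6 (time 192). The MYCN line arrays of time 192 thus fell on both sides of those of time 0. The mock trend was 0.12 per time step (SE 0.02, limma, adjusted p = 0.032), and a second probe set, B, gave the same slope (adjusted p = 0.031). These 2 of 40 members were called for the mock trend, against 0.998% of all probe sets. Both calls were lost with equal array medians, without a filter, and without the single mock array of time 4, 8, 24 or 192 (adjusted p = 0.051 to 0.11), and that of probe set A also without the mock array of time 96 (0.051). GAS5 probe sets C, D and E were not called for the mock trend (limma, adjusted p = 0.34, 0.60 and 0.97). Their mock changes from time 0 to time 192 were 0.40, -0.06 and -0.02.

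The difference in trend, MYCN line minus mock line, was -0.12 per step for both (SE 0.03, adjusted p = 0.0054 and 0.016), and -0.10 for probe set C (SE 0.03, adjusted p = 0.042). With H19 these were the 4 of 40 members called for a difference in trend, against 13.5% of all probe sets. The calls rest on the mock array of time 192: without it the 3 GAS5 differences were -0.09, -0.09 and -0.07 with adjusted p of 0.16, 0.24 and 0.38. The call of probe set B was also lost without replicate 2 (0.076), and that of probe set C without any replicate number, without a filter, and without any 1 of 9 other single arrays (0.051 to 0.095). That array also had the highest median signal, 20.2 against 16.9 to 18.3 on the other mock arrays, and with equal array medians the 3 differences were -0.09, -0.08 and -0.07 (adjusted p = 0.227, 0.325 and 0.420). The part of this scaling in the result was not tested further.

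Against time 0 in the MYCN line, probe set C was the single GAS5 call. It read 1057.4, 1285.1 and 1294.2 at time 48, against 1655.8, 1393.3 and 1800.5 at time 0, with no overlap, a relation that 11.9% of all tested probe sets showed. The change was -0.41 (SE 0.12, limma, adjusted p = 0.044), and it was lost with equal array medians (adjusted p = 0.39), without a filter (0.071), in a fit of times 0 and 48 alone (0.12), without replicate 1 (0.48) or replicate 2 (0.14), and without any 1 of 10 of the 21 single arrays (0.050 to 0.22), namely replicates 1 and 3 at time 0 and replicates 1 and 2 at times 4, 8, 24 and 48. Probe sets A, B, D and E were not called. Probe set E read 31.6, 27.3 and 25 at time 48, against 48.4, 40.8 and 42.7 at time 0, again with no overlap, and its change was -0.66 (SE 0.32, adjusted p = 0.26). The 5 GAS5 probe sets correlated in pairs at 0.31 to 0.94 over the 21 MYCN line arrays. The annotation of 4 of the 5 also lists the snoRNA genes of the host.

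**Figure D2:**
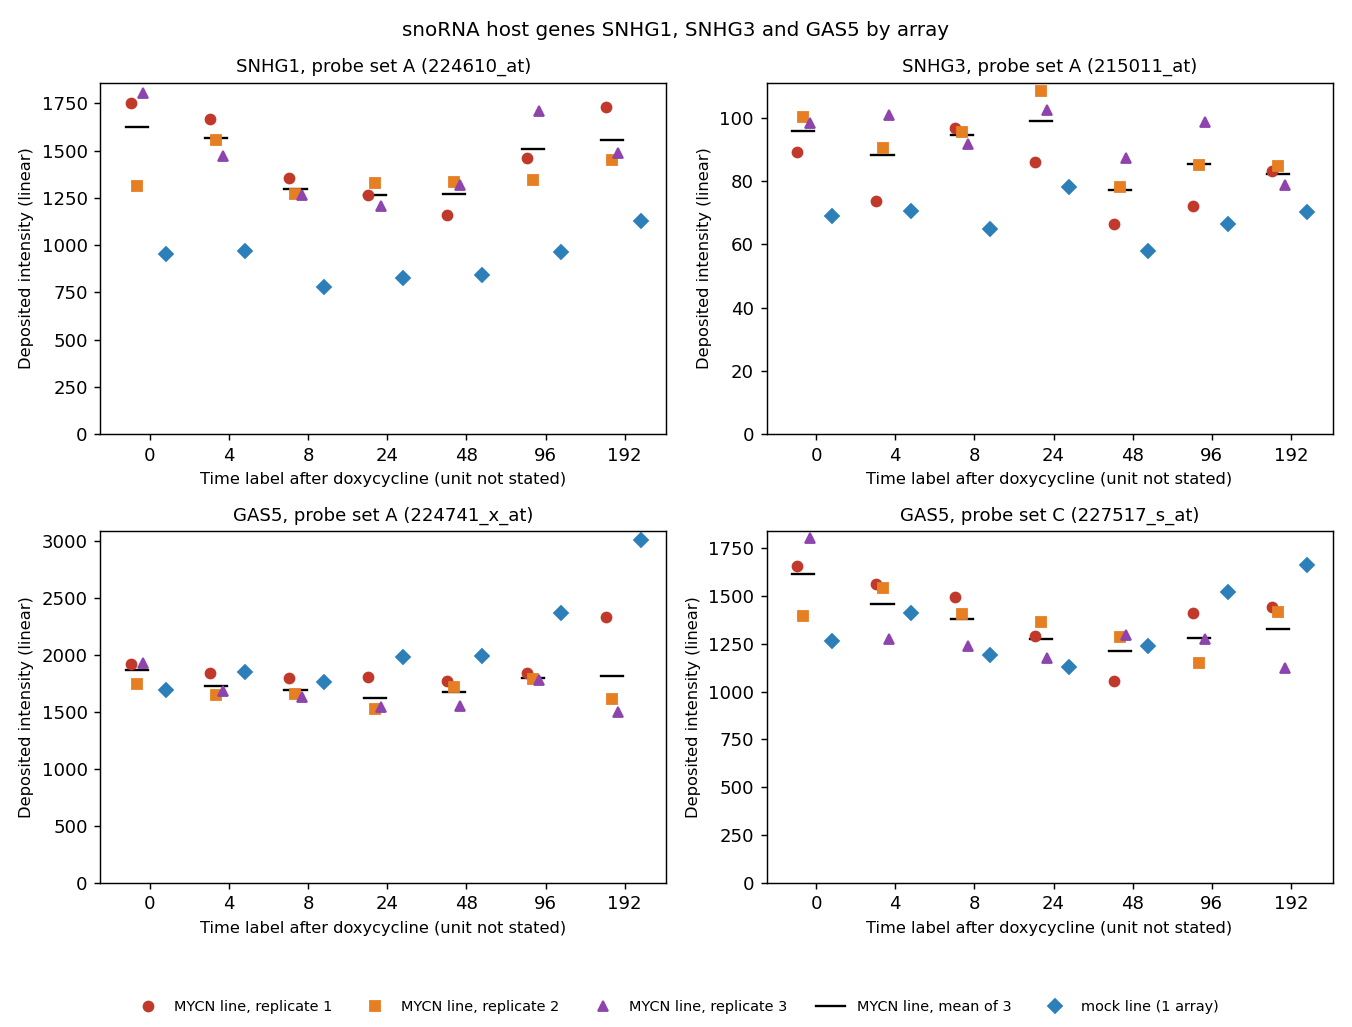
Deposited intensity (linear axis) of SNHG1, SNHG3 and 2 GAS5 probe sets by time label, with MYCN line replicates as separate points, their mean as a bar and the mock array to the right. SNHG1 lies above the mock arrays at every time, and GAS5 probe set A reaches 3012.5 on the last mock array, against 1497.6 to 2333.8 in the MYCN line.

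H19 was high in the MYCN line and low in the mock line, and in the MYCN line its late arrays were lower. Probe set A read 820.0, 1227.5 and 1142.3 before doxycycline (time 0; replicates 1, 2 and 3), 751.8, 673.3 and 873.6 (time 4), 695.8, 771.1 and 862.9 (time 8), and 1118.7, 618.7 and 1526.4 (time 24). It then read 262.0, 956.4 and 1803.4 (time 48), 312.0, 356.2 and 1337.3 (time 96), and 114.5, 371.1 and 734.0 (time 192). Replicate 3 was the highest at every time after time 0. The replicates lay wider apart from time 24 on, with an SD of 455 at time 24 and 84 at time 8. All 3 arrays of time 192 lay below all 3 of time 0, as they did for 15% of all tested probe sets. The mock arrays read 15.6, 25, 24.5, 21.2, 43.2, 29.4 and 140.0, so only the last mock array reached the lowest MYCN line array.

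The change of H19 at time 192 was -1.73 (SE 0.62, limma), which missed the threshold with an adjusted p of 0.068. By replicate, against the time 0 array of the same number, it was -2.84, -1.73 and -0.64. Blocking on the replicate number gave an adjusted p of 0.0073, with the hybridisation split as a block 0.010, and within replicates 1 and 2 alone the change was -2.28 (adjusted p = 0.0085). It was -2.35 (adjusted p = 0.019) without the time 192 array of replicate 3 alone, and -1.01 (adjusted p = 0.36) without that of replicate 1. In all, leaving out 1 array gave a call for 4 of the 21 arrays (0.019 to 0.045). Deviations from group means correlated between arrays of the same number at 0.063, 0.096 and 0.157 for time 192 and time 0. These values are low and near the 0.104, 0.123 and 0.202 of time 4. What arrays of a number share is not stated in the labels, so the blocked value was not read as a paired test. The second probe set, B, moved with the first (r = 0.96 over the 21 arrays): it read 16.7, 59.3 and 143.4 at time 192, against 101.1, 150.4 and 212.5 at time 0, a change of -1.5 (adjusted p = 0.11), and -1.97 (adjusted p = 0.013) within replicates 1 and 2.

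Against the mock trend, H19 probe set A differed by -0.61 per step (SE 0.16, limma, adjusted p = 0.0089), with slopes of -0.22 in the MYCN line, against 0.39 in the mock line. Without the mock array of time 192 the difference was -0.42 (adjusted p = 0.22), and between replicate 3 and the mock line, which share a side of the hybridisation split, it was -0.37 (adjusted p = 0.080). The second probe set gave -0.32 (adjusted p = 0.19).

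MEG3 showed the opposite line pattern and no call. Probe set A read 1.0 to 19.4 (median 5.2) in the MYCN line, and 119.4, 66.0, 73.2, 79.3, 119.0, 113.8 and 303.4 on the mock arrays in time order. On 5 of the 10 MEG3 probe sets, 3 of them tested, every mock array lay above every MYCN line array, a relation that 6.91% of all tested probe sets showed. Probe sets A and B passed the filter only through the mock arrays. Their mean log2 was 2.43 and 2.74 in the MYCN line, under the filter of 2.89, and 6.77 and 5.87 in the mock line. Their place among the tested probe sets thus rests on the line difference itself, and the share is no test of it. For probe set B the values were 1.5 to 16 in the MYCN line and 44.4 to 96.0 in the mock line. For probe set D they were 2.3 to 17 in the MYCN line and 31.1 to 83.5 in the mock line. The dimmer probe sets C and H, below the filter, read at most 8.1 and 11.7 in the MYCN line and at least 22.3 and 35.6 in the mock line. Within replicate 3, probe set A read 2.4 to 18.5, so replicate 3, on the mock line's side of the hybridisation split, also lay below every mock array. The line difference in H19 and MEG3 was present at time 0, has no test here since each line is a single derivative, and ran beside the marker differences given above.

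Over time no MEG3 change in the MYCN line was called. For probe set A, whose MYCN line mean lay under the filter, it was -0.52 (SE 0.88, limma, adjusted p = 0.78) at time 192. The mock array of time 192 was the highest of the 7 on 4 of the 5 tested MEG3 probe sets and on both H19 probe sets. Of the neighbours, DLK1 was below the filter, and MRPL23, a mitochondrial ribosomal protein gene near H19, changed by -0.02 at time 192 (adjusted p = 0.97).

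MALAT1 had 12 tested probe sets, the most of any member, and 0 calls over the times (limma; 2 unadjusted p under 0.05, both for probe set L, with adjusted p of 0.485 at time 8 and 0.105 at time 192). The probe sets did not move together. Pairwise correlations over the 21 MYCN line arrays ran from -0.78 to 0.996, with a median of -0.04. The spread followed the replicate number. On 4 of the 12 every array of replicate 3 lay below every array of replicates 1 and 2, and on 2 above, against 0.888% and 0.568% of all tested probe sets.

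Probe set C was one of the 4. It read 232.6 to 539.3 (median 427.0) in replicate 3 and 1086.0 to 2318.3 in replicates 1 and 2, and 328.7 to 873.0 in the mock line. Probe sets B, G and H had the same order. The opposite was seen for probe set K, with 221.2 to 266.8 in replicate 3, 90.2 to 172.4 in replicates 1 and 2, and 244.6 to 351.6 in the mock line. On these probe sets the range of replicate 3 overlapped that of the mock line, and both have the higher hybridisation control signal. The part of that split in these values was not tested.

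Single arrays broke the pattern of probe set E. In replicate 3 it read 234.5, 1010.2, 1245.9, 1311.7, 959.9, 1708.3 and 1611.5 from time 0 to time 192, so the time 0 array stood with replicates 1 and 2, which read 200.9 to 319.8. In the mock line it read 755.3, 2360.7, 1865.8, 2076.1, 2252.9, 2221.3 and 1077.3, low at the first and last times. Probe set J dipped on the same 3 arrays, with 96.3 in replicate 3 at time 0 and 216.4 and 233.9 in the mock line at times 0 and 192. Probe sets B, C, G and I were also at their lowest within replicate 3 and within the mock line on these arrays. Probe set C read 394.4 and 328.7 on the mock arrays of times 0 and 192, against 726.4 to 873.0 between them. The low arrays were thus 3 single arrays, 2 of them at time 0.

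Within replicates 1 and 2, which share a side of the split, MALAT1 was lower late in the course on 5 of 12 probe sets, where 7.94% of all tested probe sets were called lower in the same fit. These probe sets read 1 gene and are not independent: probe sets C and G are the pair with the highest correlation given above. Probe set F read 2261.4 and 1695.1 at time 192, against 3599.4 and 3088.2 at time 0, a change of -0.77 (limma, adjusted p = 0.028). For probe set L the values were 1708.6 and 1356.7 at time 192, against 2616.0 and 2496.4 at time 0, a change of -0.75 (adjusted p = 0.013). The changes of probe sets C, G and H were -0.71, -0.74 and -0.70 (adjusted p = 0.019, 0.018 and 0.026). Replicate 3 did not share them: probe set F read 1574.7 at time 192, against 1329.8 at time 0. Over all 3 replicates the change of probe set F was -0.43 (adjusted p = 0.50).

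**Figure D3:**
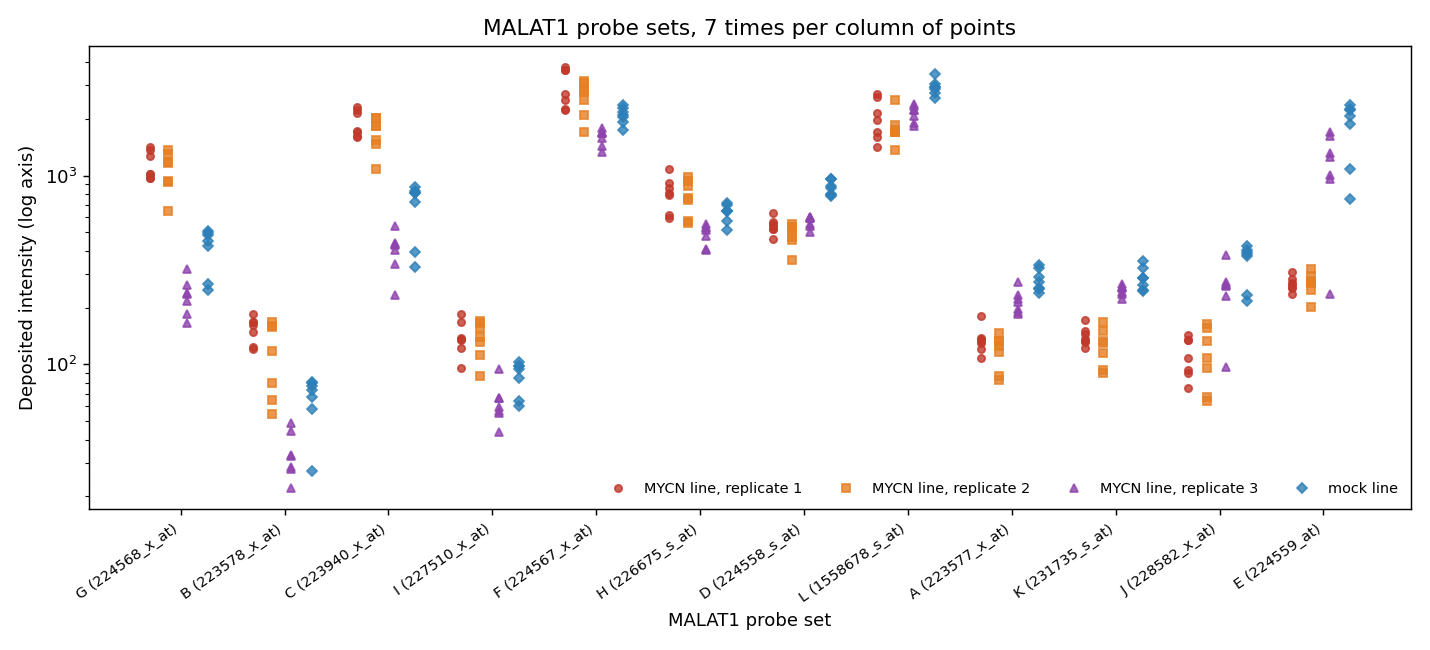
Deposited intensity on a log axis for the 12 MALAT1 probe sets, ordered by replicate 3 relative to replicates 1 and 2, with 7 points per column, 1 for each time. Columns run MYCN line replicates 1, 2 and 3 and the mock line; replicate 3 lies wholly under replicates 1 and 2 on 4 probe sets toward the left and wholly above them on 2 toward the right, and overlaps them on the other 6.

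NEAT1 had 8 tested probe sets and 0 calls over the times (limma; 1 unadjusted p under 0.05; smallest adjusted p 0.296). Probe set C, which also lists the embedded MIR612, averaged 891.6 ± 123.7 at time 192, against 891.1 ± 229.0 at time 0 (SD, n = 3 each). Probe set G read 614.9, 315.1 and 1078.2 at time 192, against 436.2, 614.1 and 469.1 at time 0, so the late arrays lay on both sides. In the mock line it read 887.9, 928.6, 703.4, 1017.2, 1570.6, 1003.9 and 2141.7 in time order. The last mock array was the highest of the 7 on 7 of the 8 NEAT1 probe sets. Over all 40 members it was the highest on 22 (55%), where 31.2% of all tested probe sets had their highest mock value there, and the lowest on 6, where 22.4% had. The mock line has 1 array at that time, so this has no replicate.

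**Figure D4:**
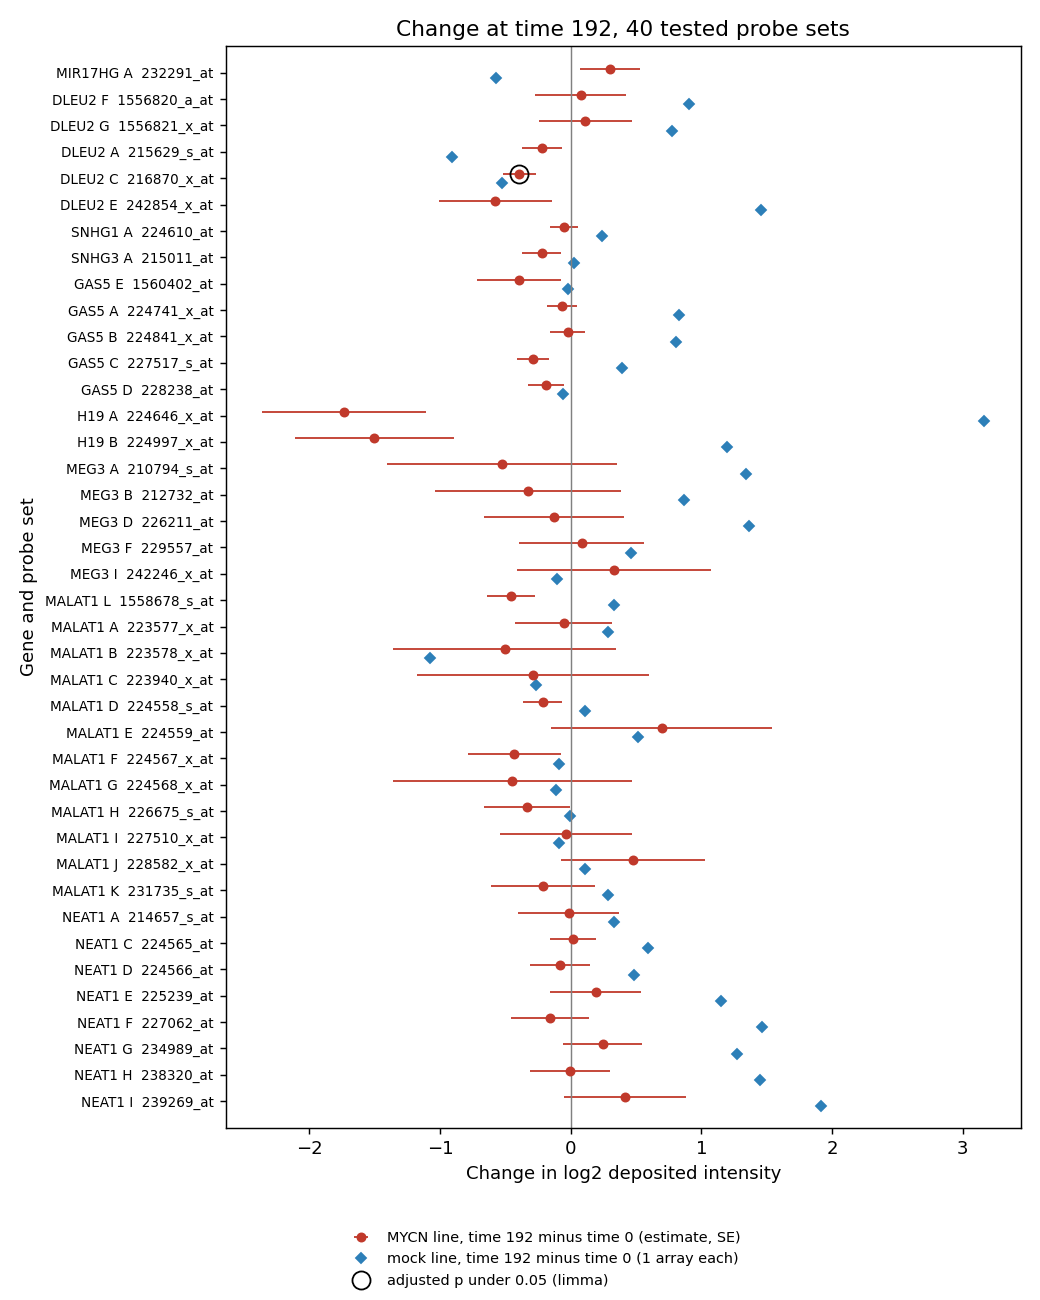
Change in log2 intensity from time 0 to time 192 for the 40 tested probe sets, with the MYCN line estimate and its SE as circles and bars and the mock line, 1 array at each time, as diamonds. The ringed DLEU2 probe set (-0.39) is the single call, and the mock diamonds of H19, MEG3, GAS5 and NEAT1 lie mostly to the right of 0.

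Other genes of these pathways give the setting. Their lists were chosen with earlier results of these data known, and each gene was read by its brightest single-gene probe set. At time 192, 6.57% of all tested probe sets were higher and 8.32% lower. These shares cover all tested probe sets rather than the brightest of each gene, so the list counts are not strictly comparable with them. Of 14 other small RNA host genes tested, 1 rose and 4 fell, with a median change of -0.11. Among them EPB41L4A-AS1 fell by 0.42 (limma, adjusted p = 0.039) and MIR99AHG fell by 1.5 (adjusted p = 0.025), and SNHG32 changed by -0.29 (adjusted p = 0.15) after calls at times 24 and 48. Of 9 fits with a replicate number or array left out, 8 lost the EPB41L4A-AS1 call (adjusted p up to 0.27) and 6 that of MIR99AHG (up to 0.34). The SNHG32 calls were lost in 8 of 9 at time 24 and 6 of 9 at time 48. Of the 34 genes on that list, 17 have a single-gene probe set.

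Of 18 other long noncoding RNAs, 3 rose and 2 fell at time 192. LINC-PINT, a p53-induced RNA, rose by 0.81 (limma, adjusted p = 0.00090) and also read 125.6 at time 192, against 65.6 at time 0, on the mock arrays. NORAD, which binds PUMILIO proteins, fell by 0.42 (adjusted p = 0.0033; 0.083 without replicate 1 and 0.093 without replicate 2). Of 10 locus neighbours, WDR74 and SLC3A2 beside SNHG1 rose, by 0.60 (adjusted p = 5.6e-05) and 1.01 (adjusted p = 0.015), and the other 8 were not called. The SLC3A2 value was 0.56 (adjusted p = 0.10) without replicate 1 at time 192, and its call was lost in 4 of 9 leave-out fits.

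Published targets of the miR-17-92 and miR-15/16 families gave 5 higher and 2 lower of 27 tested, with a median change of 0.03. MYLIP, a known miR-17 family target, fell by 0.89 (limma, adjusted p = 9.0e-05), STAT3 fell by 0.86 (adjusted p = 0.00064), or by 0.55 without replicate 1, and CCNE1, a known miR-15/16 target, rose by 0.67 (adjusted p = 0.00047; 0.067 without replicate 2). The targets thus moved in both directions. Of 11 microRNA processing genes 2 rose: XPO5, which exports the hairpin from the nucleus, by 0.47 (adjusted p = 0.0036), and AGO2, which binds the mature strand, by 0.59 (adjusted p = 0.0029), both lost without replicate 1 or 2. TARBP2, a Dicer partner, was called lower at times 24, 48 and 96, calls lost in 9, 4 and 6 of 9 such leave-out fits (adjusted p up to 0.47), and changed by -0.28 (adjusted p = 0.11) at time 192.

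Of 13 snoRNP proteins 3 rose and 1 fell at time 192, with a median change of 0.16. NUFIP1, an assembly factor, rose by 0.69 (limma, adjusted p = 0.00054), and PIH1D1 of the R2TP complex fell by 0.42 (adjusted p = 0.0038; 0.15 without replicate 1). RUVBL1, of the same complex, changed by 0.16 (adjusted p = 0.35) after a call at time 48 that was lost in 7 of 9 leave-out fits. The 11 paraspeckle proteins and the 6 nonsense-mediated decay factors had 0 calls at time 192 (limma), with 2 of each list at an unadjusted p under 0.05. TARDBP came nearest among the first, with 0.27 (adjusted p = 0.052), and UPF2 among the second changed by 0.25 (adjusted p = 0.14).

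Genes whose log2 signal ran most like that of each member were found over the 21 MYCN line arrays, which share time course, scaling and the hybridisation split. H19 probe set A ran with MCC, DUSP6 and TRIB2 (r = 0.95, 0.95 and 0.94), for which r over the 7 mock arrays was 0.64, -0.13 and 0.76. MALAT1 probe set F ran with ZBED6 (0.94, and -0.12 on the mock arrays). MIR17HG ran with RBM33, AFMID and RBM15 (0.85, 0.82 and 0.79), which gave 0.21, 0.53 and 0.72 on the mock arrays. DLEU2 probe set A ran with MGAT2 (0.86, mock 0.91), SNHG1 with TRIM13 (0.86, mock 0.51) and SNHG3 with SEC24B-AS1 (0.84, mock -0.21). GAS5 probe set A ran with ZFAS1, another snoRNA host (0.80, mock 0.97). The nearest to MEG3 probe set F and NEAT1 probe set C were ATPAF2 (0.74, mock 0.12) and FHIP1B (0.75, mock 0.81). These are descriptions of likeness in these arrays, with no test.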

How the data were processed

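RNA of the 2 SK-N-AS derivatives was hybridised to single-colour Affymetrix arrays. The deposited intensity of each probe set is a MAS5 value, per the submitters' processing notes, which also name GCOS; the handling of background and software versions are not given in these sources. The authors' intensities are on a linear scale and each array is scaled, with a trimmed mean of 100.011 to 100.013 in the deposited table, so a change is relative to the rest of its array.

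Groups came from the sample titles: 21 MYCN line arrays, 3 at each of 7 times, and 7 mock arrays. From the intensities, log2 values were taken after raising 91 values at or under 0 to a floor of 0.1. A total of 62 control probe sets were left out, and 32768 probe sets with a mean at or above the 40th percentile (signal 7.43) were tested in limma 3.58.1 (R 4.3.3; lmFit, eBayes with trend) with Benjamini-Hochberg adjustment at 0.05. Fits compared each time with time 0 and all times together (14 residual degrees of freedom), the mock trend over steps 0 to 6 (5 degrees of freedom), and the difference in trend between the lines (24 degrees of freedom). The fits were tried on simulated data with independent noise for each array. That noise holds no hybridisation split or replicate effect, so the trial cannot show how the fits behave under these. The number of arrays limits the precision. Gene names come from the platform annotation (41097 probe sets with 1 gene, 1801 with several, 11777 unnamed). Figures were drawn with matplotlib 3.10.9 in Python 3.11.15.

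The members and gene lists were chosen with earlier results of these data known. Named list genes were the 3 with the smallest F-test p of each list, and all tested locus neighbours; a gene named beyond these was chosen after its values were seen. Genes most like a member were the 3 with the highest correlation over the MYCN line arrays. Replicate numbers were checked for pairing by the correlation of deviations from group means: all 3 were over 0.1 at times 4 and 8 (0.104 to 0.210), and not at times 24, 48, 96 and 192. At time 192 they were 0.063 to 0.157, so this mark separates values that lie close. Those of replicate 3 were over 0.1 at every time after time 0. Alternatives were equal array medians, quantile normalization, other filters, an offset of 16 on the log scale, 1 probe set per gene, the replicate number or hybridisation split as a block, 2 times only, and leaving out replicates or arrays. The difference in trend over replicate 3 and the mock line alone was added after seeing the data, as was leaving out arrays of times other than the 2 compared.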

Additional observations from a re-analysis of the deposited data

Results flagged for a closer look

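For 4 member probe sets the trend over the time steps differed between the MYCN line and the mock line by an interaction test in limma, where 13.5% of all tested probe sets did. For H19 probe set A the MYCN line slope minus the mock slope was -0.61 per step (SE 0.16, adjusted p = 0.0089), lower in the MYCN line at -0.22 and higher in the mock line at 0.39. The GAS5 probe sets A, B and C differed by -0.12, -0.12 and -0.10 per step (adjusted p = 0.0054, 0.016 and 0.042). Each of the 4 calls was lost without the single mock array of time 192.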

How the results depend on the processing

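Setting arrays to equal medians left 0 member calls at times 48 and 192, 0 over all times, 0 for the mock trend and 1 trend difference (H19). Without a filter on dim probe sets there were 0 at times 48 and 192, 0 over all times and 0 for the mock trend. Quantile normalization gave 2 at time 48, 1 at time 96 and 0 at time 192. With 1 bright single-gene probe set per gene there were 0 at time 48, 1 over all times, 0 mock trend calls and 0 trend differences, where fewer member probe sets enter. Fits of 2 times alone gave 0 at time 48 and 0 at time 192. The replicate block gave 1 call (time 24), 3 (time 48), 1 (time 96) and 4 (time 192), and the hybridisation split as a block gave 3, 1 and 3 at times 48, 96 and 192. At times 4 and 8 the block changed no member call. What arrays of a number share is not stated in the labels, so the block is not a paired test. Leaving out replicates or arrays gave 0 to 0 calls for times 4 and 8, 0 to 1 for time 24, 0 to 2 for time 48, 0 to 1 for time 96, 0 to 7 for time 192 (7 without replicate 3), 0 to 3 over all times, 0 to 3 mock trend calls and 0 to 4 trend differences (0 without the mock array of time 192). Replicate 3 with the mock line alone gave 4 calls for the difference, 2 GAS5 probe sets kept and 2 MEG3 probe sets in place of the others. Without replicate 3, 14.4% of all tested probe sets were called at time 192. For the other alternatives the share over all probe sets is not given here, so their member counts have no background beside them. The cause of these moves was not tested. Direction under the alternatives was followed for the called changes and for a few uncalled ones of H19, MIR17HG and SNHG1. None of these changed direction. The other uncalled changes were not followed. That of MEG3 probe set A at time 192 was 1.74, -0.43 and -2.89 by replicate number, so its direction is not settled. Each member call was lost under at least 1 alternative. Probe sets of low signal, such as MEG3 in the MYCN line, have imprecise logs, and the mock line has 1 array at each time.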
